A study of Mus musculus with 6 samples.

Results

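The TGF-beta, BMP and activin pathway was described in mouse embryonic fibroblasts through 42 genes chosen by symbol: 14 ligands, 8 receptors, 9 secreted antagonists and binding proteins, 7 Smads and 4 Id genes. All 42 were found among the 22180 genes that had a probe set naming a single gene. Each had 1 such probe set except Gdf5, which had 2 and is given by the brighter. RNA came from 3 samples of Pax7-/- fibroblasts and 3 samples of Pax7+/+ fibroblasts, numbered as biological replicates 1 to 3 in each genotype, and each was hybridised to 1 Affymetrix array. Both genotypes were on an F1 background (C57Bl6N x 129Sv), were grown in DMEM with serum and antibiotics and were collected at confluence. Pax7 is a DNA-binding factor with a paired domain and a homeodomain that marks muscle stem cells, and the question addressed is which genes its loss affects in fibroblasts. The labels do not state which part of Pax7 is deleted, how old the embryos were or which embryos each sample came from, so p-values measure only the spread between these samples. The titles name fibroblasts, whereas the cell type label reads ESCs (embryonic stem cells).

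Ligands of the TGF-beta superfamily are secreted dimers that bring together type I and type II receptor kinases on the cell surface. TGF-betas and activins signal mainly through Smad2 and Smad3, and BMPs through Smad1 and Smad5, each joined by the common Smad4. Smad6 and Smad7 are feedback inhibitors, Id genes are direct targets of BMP signalling, and follistatin, gremlin and noggin trap ligands outside the cell. In fibroblasts, TGF-beta is known for driving matrix production and the contractile myofibroblast state.

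For 6 of the 42 members (Inhba, Fst, Fstl3, Acvr2a, Bmp4 and Bmpr1a) the 3 pairs of equal-numbered arrays all differed in 1 direction with a mean difference of at least 0.3 on the log2 scale (2.64% of all genes). For Acvr2a 2 of the pairs lay below background, as described further on. The promoters of 4 of these, from 250 bases before to 50 bases after the start of the gene in RefSeq (build GRCm38.p6), are printed 5′ to 3′ because their genes carry the differences described below. Fst had no entry in the promoter table, and the Acvr2a promoter, which held none of the motifs, is not printed because that gene was above background in replicate 3 alone. Smad6 is added as the one member whose promoter held the Smad palindrome GTCTAGAC. Capitals mark the motifs found in the listed window on either strand: TATAAA (the TATA box), CAGACA (a Smad binding element), GGCGCC (a GC-rich Smad element), GTCTAGAC and TAAT followed after 2 bases by ATTA (a site for homeodomain pairs such as those of Pax proteins).
Inhba promoter (chr13:16011601-16011900, plus strand): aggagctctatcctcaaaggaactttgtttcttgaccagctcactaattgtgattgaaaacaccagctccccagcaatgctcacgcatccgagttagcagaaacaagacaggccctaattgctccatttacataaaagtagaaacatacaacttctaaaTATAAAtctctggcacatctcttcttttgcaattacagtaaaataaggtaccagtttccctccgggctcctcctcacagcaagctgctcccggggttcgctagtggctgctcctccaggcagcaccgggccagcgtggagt
Fstl3 promoter (chr10:79777024-79777323, plus strand): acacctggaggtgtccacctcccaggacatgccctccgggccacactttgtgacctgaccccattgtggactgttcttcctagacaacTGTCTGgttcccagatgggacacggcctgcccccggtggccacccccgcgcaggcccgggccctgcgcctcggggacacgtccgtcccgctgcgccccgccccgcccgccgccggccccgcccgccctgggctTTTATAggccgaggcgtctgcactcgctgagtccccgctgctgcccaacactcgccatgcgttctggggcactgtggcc
Bmp4 promoter (chr14:46390620-46390919, minus strand): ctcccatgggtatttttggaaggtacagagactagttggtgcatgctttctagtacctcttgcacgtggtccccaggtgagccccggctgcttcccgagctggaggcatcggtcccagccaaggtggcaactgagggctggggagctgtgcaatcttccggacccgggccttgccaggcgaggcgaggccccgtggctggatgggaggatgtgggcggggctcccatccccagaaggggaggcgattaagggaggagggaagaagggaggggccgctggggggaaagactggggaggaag
Bmpr1a promoter (chr14:34502497-34502796, minus strand): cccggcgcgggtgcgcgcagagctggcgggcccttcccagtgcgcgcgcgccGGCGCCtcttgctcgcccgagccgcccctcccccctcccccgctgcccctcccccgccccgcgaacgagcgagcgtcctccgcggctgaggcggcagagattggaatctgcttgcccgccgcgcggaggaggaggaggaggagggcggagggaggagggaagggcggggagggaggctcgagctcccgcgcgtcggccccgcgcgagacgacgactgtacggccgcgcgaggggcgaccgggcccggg
Smad6 promoter (chr9:64022010-64022309, minus strand): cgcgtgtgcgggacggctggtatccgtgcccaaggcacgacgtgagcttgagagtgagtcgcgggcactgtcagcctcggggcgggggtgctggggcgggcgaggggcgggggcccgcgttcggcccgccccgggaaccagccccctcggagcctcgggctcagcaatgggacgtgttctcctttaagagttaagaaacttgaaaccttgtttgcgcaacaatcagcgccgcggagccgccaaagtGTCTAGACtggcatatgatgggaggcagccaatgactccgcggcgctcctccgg

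Promoters in RefSeq were found for 29 of the 42 members. Shares of members below are counted per gene and those of all promoters per promoter, so the 2 are in unlike units. TATAAA was present in 4 of these 29 genes (13.8%; 13.6% of all 32851 promoters), among them Inhba, where it began 91 bases before the start, and Fstl3, where it was on the opposite strand and began 29 bases before. CAGACA was present in 7 (24.1%, against 21% of all promoters), including Fstl3, again on the opposite strand. GGCGCC was present in 8 (27.6%, against 11.9%): Bmpr1a, Bmpr2, Gdf10, Grem1, Id2, Id4, Smad5 and Tgfbr1. GTCTAGAC was present in Smad6 alone among these 29 (0.213% of all promoters), beginning 4 bases before the start. The homeodomain site was present in 0 of the 29 and in 0.39% of all promoters. The Bmp4 window held none of the 5 motifs.

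The replicate 3 arrays stood apart from the other 4 in both genotypes. They correlated at 0.988 with each other and at 0.789 to 0.824 with the remaining arrays, which correlated at 0.982 to 0.987 among themselves. The deposited log2 signals come with no detection calls, and a gene is called above background here where it exceeds the 95th percentile of 1390 sensory receptor genes (olfactory and vomeronasal) on its array. This level lay at 5.43, 5.34 and 4.63 on Pax7-/- arrays 1, 2 and 3, and at 5.44, 5.34 and 4.65 on the Pax7+/+ arrays. Pax7 itself read 6.17, 5.95 and 5.05 in Pax7-/- cells, against 6.14, 5.65 and 4.88 in Pax7+/+ cells, from a probe set whose place relative to the deletion is not known, so it does not check the genotype. The fibroblast markers ranked high on every array (median percentile 97.7 to 98.6), and 10 of 11 were above background on all 6. The pluripotent cell markers ranked low (median percentile 34.5 to 42.9), and 7 of 12 were not above background on any array.

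The threshold was an adjusted p under 0.05, and no member passed it with genotype alone or with the replicate number as a block; Fst passed under one alternative setting, given with its values. With genotype alone in limma, 0 of 22180 genes passed and 15 had an unadjusted p under 0.05, none of them a member. Equal-numbered arrays deviated together from their genotype's mean, so the replicate number was also fitted as a block. Replicates 1 and 2 of unequal number correlated as well (0.898 and 0.910, against 0.920 and 0.895 for equal numbers). The data thus set replicate 3 apart but do not match numbers 1 and 2 between the genotypes. With the block, 17 of all genes passed (0.0766%), and 0 of the 42 members did. An unadjusted p under 0.05 was reached by 6 members (14.3%; 6.73% of all genes), the same 6 as above, 2 of them higher (3.28% of all genes) and 4 lower (3.45%). Among genes above background on at least 3 arrays the figures were 5 of 35 members, against 9.35% of 11037 genes. A common sign in all 3 pairs was found in 16 members (27.5% of all genes), with 7 higher and 9 lower in Pax7-/- cells (13.8% of all genes in each direction). These 16 include Bmp5 and Mstn, which were not above background on any array, and Acvr2a. Among the 35 members above background on at least 3 arrays, 6 were higher and 7 lower in all 3 pairs (15.1% and 15% of such genes). The genotypes overlapped in every member over the 3 replicates (no overlap in 1.41% of all genes). Within replicates 1 and 2 alone they did not overlap in 8 members that were higher and 10 that were lower in Pax7-/- cells (15.9% and 16.2% of all genes). Bmp5 and Chrdl1 of those higher, and Mstn and Acvr2a of those lower, were not above background on these arrays. Over the 42 members the median difference, Pax7-/- minus Pax7+/+, was -0.05 (-0.02, -0.01 and -0.04 in pairs 1, 2 and 3), against -0.00 over all genes.

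**Figure D1:**
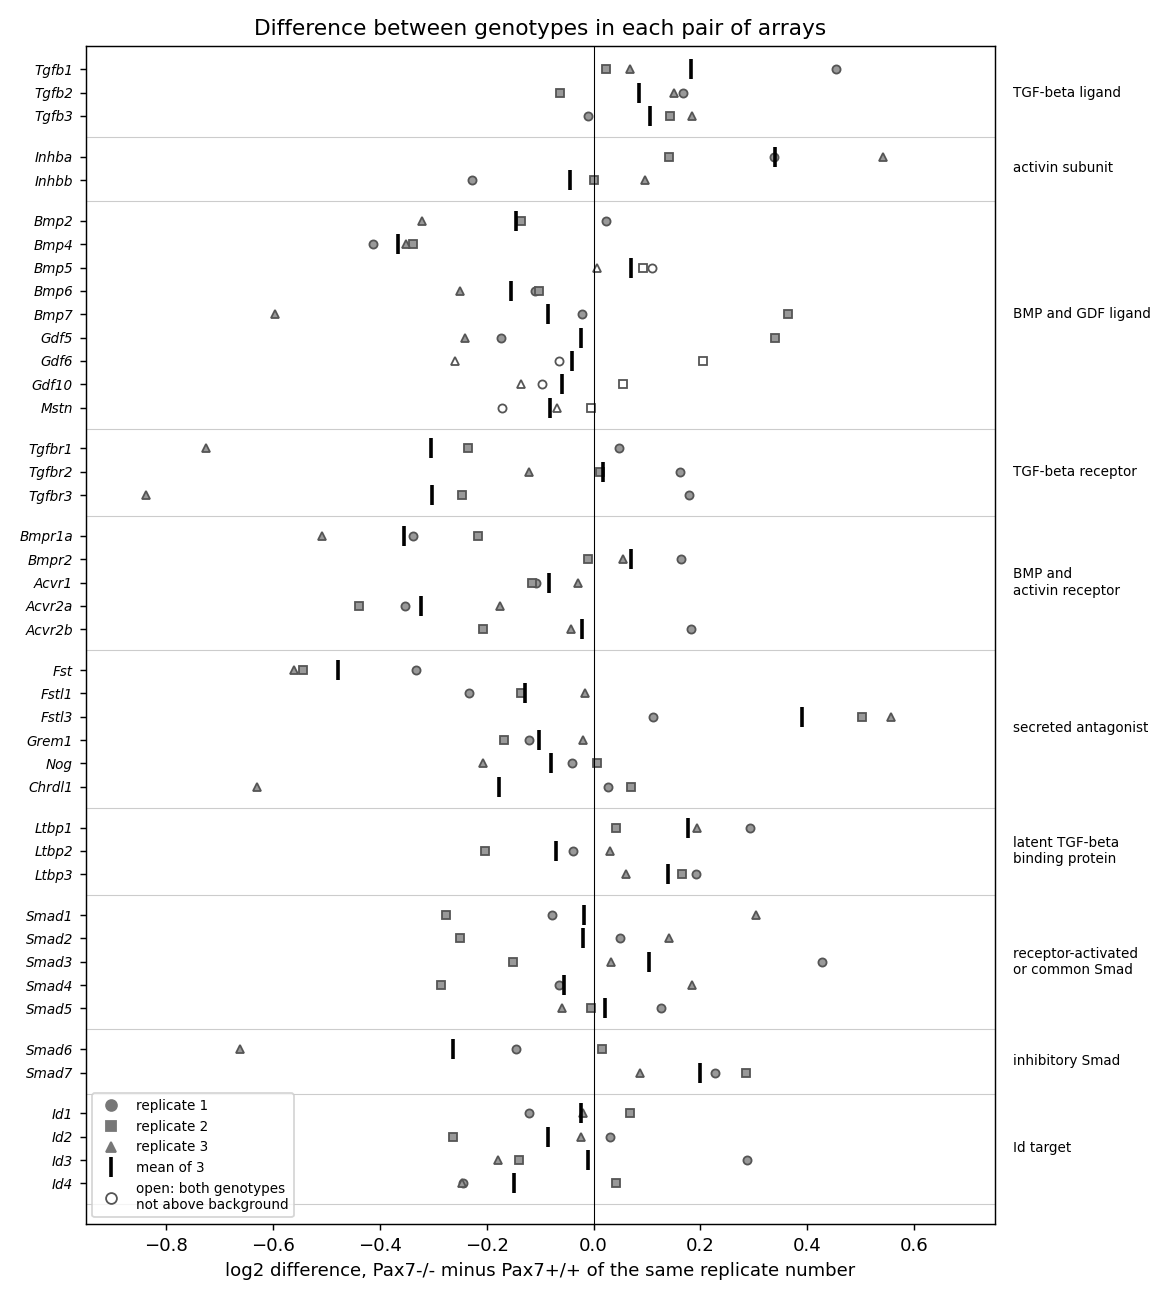
Log2 difference between the Pax7-/- and the Pax7+/+ array of the same replicate number (horizontal axis) for each of the 42 genes, by role. Circles, squares and triangles are replicates 1, 2 and 3, the vertical bar is their mean, and open symbols are genes not above background in either genotype. Means run from -0.48 (Fst) to 0.39 (Fstl3).

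Activins are dimers of inhibin beta chains. Inhba, which encodes the beta A chain of activin A, was at 8.90, 8.92 and 10.01 in Pax7-/- replicates 1, 2 and 3, against 8.57, 8.77 and 9.47 in Pax7+/+ cells. Each Pax7-/- array lay above the Pax7+/+ array of its number. The difference was 0.34, 0.14 and 0.54 in the 3 pairs and 0.34 on average (1.27-fold; limma SE 0.10 in the blocked fit and 0.41 in the other; 95% interval 0.11 to 0.57; blocked adjusted p = 0.557). Inhbb, the beta B chain, differed by -0.23, 0.00 and 0.10 in the pairs, and its mean of -0.04 had an interval of -0.27 to 0.18.

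Follistatin binds activin and blocks its access to receptors. Fst was at 8.94, 8.99 and 10.05 in Pax7-/- replicates 1, 2 and 3, against 9.27, 9.54 and 10.61 in Pax7+/+ cells. Every pair was lower in Pax7-/- cells, by -0.33, -0.54 and -0.56, and within replicates 1 and 2 the genotypes did not overlap. The mean of -0.48 (1.39-fold lower in Pax7-/- cells) was the lowest of the 42 members (limma SE 0.09 in the blocked fit and 0.48 in the other; interval -0.69 to -0.27; blocked adjusted p = 0.184). With the block and a prior variance that follows signal intensity, Fst passed (limma, adjusted p = 0.0374). Without replicate 3 the mean of the pairs was -0.44.

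Fstl3, a follistatin-like protein that also binds activins and myostatin, went the other way. It was at 8.12, 8.08 and 8.91 in Pax7-/- replicates 1, 2 and 3, against 8.01, 7.58 and 8.35 in Pax7+/+ cells. The pairs differed by 0.11, 0.50 and 0.56, so the first pair was close to level. The mean was 0.39 (1.31-fold; limma SE 0.11 in the blocked fit and 0.33 in the other; interval 0.14 to 0.64; blocked adjusted p = 0.484), the highest of the 42. Fstl1, a secreted glycoprotein of the same family that many fibroblasts make, differed by -0.23, -0.14 and -0.02 in the pairs (mean -0.13, interval -0.34 to 0.08).

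Acvr2a, a type II receptor for activins and several BMPs, was at 4.82, 4.72 and 6.92 in Pax7-/- replicates 1, 2 and 3, against 5.17, 5.15 and 7.10 in Pax7+/+ cells. In replicates 1 and 2 it lay below background in both genotypes, so the third pair (-0.18) is its only measured difference, and the lower signals of the other pairs (-0.35 and -0.44) cannot be read as a level. Acvr2b, the related type II receptor, was above background on every array and differed by 0.18, -0.21 and -0.04 (mean -0.02, interval -0.25 to 0.21).

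**Figure D2:**
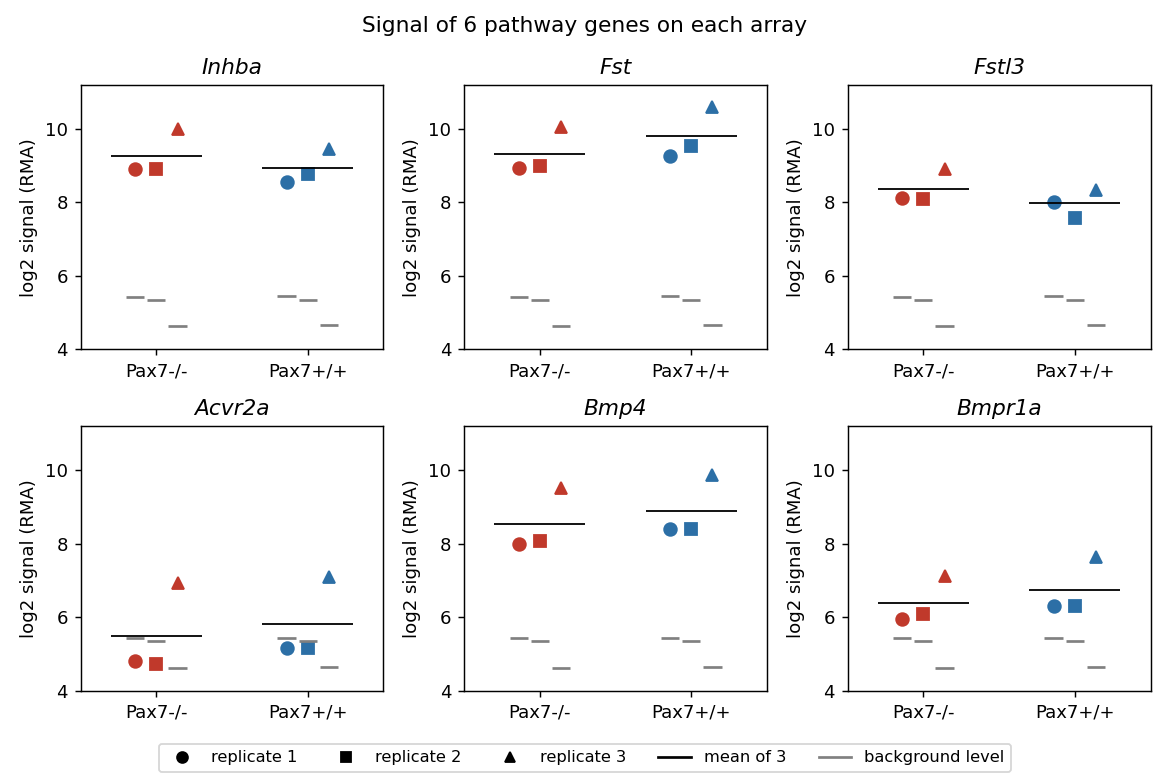
Log2 signal (vertical axis) of Inhba, Fst, Fstl3, Acvr2a, Bmp4 and Bmpr1a on each Pax7-/- array (left, red) and each Pax7+/+ array (right, blue). Symbols are replicates, black lines the mean of 3 and short grey lines the background level of each array. Replicate 3 was the highest in every panel and genotype, and Acvr2a replicates 1 and 2 lay below background.

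Among BMP and GDF ligands, Bmp4 had the largest difference. It was at 7.99, 8.08 and 9.51 in Pax7-/- replicates 1, 2 and 3, against 8.40, 8.41 and 9.86 in Pax7+/+ cells. The pairs differed by nearly the same amount, -0.41, -0.34 and -0.35, and within replicates 1 and 2 the genotypes did not overlap. The mean was -0.37 (1.29-fold lower in Pax7-/- cells; limma SE 0.09 in the blocked fit and 0.59 in the other; interval -0.57 to -0.17; blocked adjusted p = 0.362).

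The remaining members of this class were dim or mixed. Bmp5, Gdf6, Gdf10 and Mstn (myostatin, which restrains muscle growth) were not above background on any array, so no difference is given for these 4. Bmp6 was at 5.45, 5.31 and 4.48 in Pax7-/- cells, against 5.56, 5.41 and 4.73 in Pax7+/+ cells. All 3 pairs were lower (mean -0.15, interval -0.36 to 0.05), but in Pax7-/- cells only 1 array was above background. Bmp7, a ligand of kidney and eye development, was at 6.02, 6.47 and 4.41 in Pax7-/- cells, against 6.04, 6.11 and 5.01 in Pax7+/+ cells, with pairs of -0.02, 0.36 and -0.59, and lay below background in Pax7-/- replicate 3. Bmp2 (mean -0.14) and the joint ligand Gdf5 (-0.02) had intervals of -0.37 to 0.08 and -0.30 to 0.25. The second probe set of Gdf5 differed by 0.07 on average, with signals of 3.71 to 4.47 that lay below background.

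Bmpr1a, the type I BMP receptor also called ALK3, was at 5.96, 6.09 and 7.12 in Pax7-/- replicates 1, 2 and 3, against 6.29, 6.30 and 7.63 in Pax7+/+ cells. Every pair was lower in Pax7-/- cells, by -0.34, -0.22 and -0.51. The mean was -0.35 (1.28-fold lower in Pax7-/- cells; limma SE 0.10 in the blocked fit and 0.50 in the other; interval -0.57 to -0.13; blocked adjusted p = 0.465). Acvr1 (ALK2), another type I receptor, was lower in every pair by smaller amounts (-0.11, -0.12 and -0.03). The type II receptor Bmpr2 was at 8.45, 8.56 and 9.67 in Pax7-/- cells, against 8.28, 8.57 and 9.61 in Pax7+/+ cells, a mean difference of 0.07 (interval -0.14 to 0.28). A further probe set that names Bmpr2 along with Gm20272 differed by 0.24, 0.06 and -0.07 in the pairs (mean 0.08). It lay below background on Pax7-/- array 2 and on Pax7+/+ arrays 1 and 2.

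Of the BMP antagonists, Grem1 (gremlin) was at 6.72, 6.99 and 8.38 in Pax7-/- cells, against 6.84, 7.16 and 8.40 in Pax7+/+ cells. It was lower in each pair, by -0.12, -0.17 and -0.02, with an interval of -0.31 to 0.10 around the mean. Nog (noggin) lay close to background on all arrays, between 4.76 and 5.52 in Pax7-/- cells and between 4.97 and 5.51 in Pax7+/+ cells, and differed by -0.08. Chrdl1, a chordin-like antagonist, was above background in replicate 3 alone, at 5.14 in Pax7-/- cells, against 5.77 in Pax7+/+ cells.

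The 3 TGF-beta ligands all had means above 0. Tgfb1 was at 7.36, 7.28 and 8.68 in Pax7-/- replicates 1, 2 and 3, against 6.90, 7.26 and 8.61 in Pax7+/+ cells. Its mean of 0.18 rested on the first pair (0.45, 0.02 and 0.07 in the pairs; interval -0.06 to 0.43). Tgfb2 differed by 0.09 (interval -0.13 to 0.30). Tgfb3 was at 10.14, 10.29 and 10.90 in Pax7-/- cells, against 10.15, 10.15 and 10.71 in Pax7+/+ cells, a difference of 0.11 (interval -0.10 to 0.31).

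Of the 3 TGF-beta receptors, Tgfbr1 and Tgfbr3 differed mainly in the third pair. Tgfbr3, the co-receptor betaglycan, was at 5.92, 5.95 and 6.89 in Pax7-/- cells, against 5.74, 6.20 and 7.73 in Pax7+/+ cells. Its pairs were 0.18, -0.25 and -0.84, and the mean of -0.30 became -0.03 without replicate 3. Tgfbr1, the type I receptor ALK5, was above background in replicate 3 alone, at 6.35 in Pax7-/- cells, against 7.07 in Pax7+/+ cells. Tgfbr2, the type II receptor, differed by 0.16, 0.01 and -0.12 (mean 0.02, interval -0.20 to 0.23).

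Latent TGF-beta binding proteins tether the inactive ligand to the matrix. Ltbp1 was at 9.07, 8.99 and 9.85 in Pax7-/- cells, against 8.78, 8.94 and 9.65 in Pax7+/+ cells, higher in each pair (mean 0.18, interval -0.04 to 0.39). Ltbp3 was also higher in each pair (0.19, 0.17 and 0.06; mean 0.14, interval -0.06 to 0.34). Ltbp2 differed by -0.04, -0.20 and 0.03 in the pairs (mean -0.07). A probe set that names Ltbp2 along with D030025P21Rik was higher in each pair, by 0.34, 0.19 and 0.05. Its signals of 5.65 to 6.36 were dimmer than those of the Ltbp2 probe set (8.97 to 10.09). Which of the genes it names gave its signal is not known, so it does not settle the direction of Ltbp2.

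The Smads that carry the signal showed no common direction. Smad1 and Smad5, which serve BMP receptors, had means of -0.02 and 0.02. Smad2 and Smad3, which serve TGF-beta and activin receptors, had means of -0.02 and 0.10, and the common Smad4 had one of -0.06. Their pairs changed sign within each gene, as in Smad3 (0.43, -0.15 and 0.03) and Smad1 (-0.08, -0.28 and 0.30). The intervals of these 5 genes spanned 0 and lay between -0.30 and 0.37, so differences of that size are not excluded by these arrays.

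Both inhibitory Smads had larger means, in opposite directions. Smad7, which blocks TGF-beta and BMP receptors, was at 6.59, 7.02 and 8.45 in Pax7-/- replicates 1, 2 and 3, against 6.36, 6.73 and 8.37 in Pax7+/+ cells. It was higher in each pair (0.23, 0.29 and 0.09; mean 0.20, interval -0.01 to 0.41; adjusted p = 0.756 with the block in limma). Smad6, which acts mainly on BMP signals and whose promoter holds the palindrome printed above, was at 5.88, 6.05 and 6.42 in Pax7-/- cells, against 6.03, 6.04 and 7.09 in Pax7+/+ cells. Its difference lay in replicate 3 (-0.15, 0.02 and -0.66), and the mean of -0.26 became -0.07 without that replicate.

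The Id genes encode helix-loop-helix proteins that block differentiation factors such as MyoD, and they are widely used as readouts of BMP signalling. Id1 was at 6.63, 6.87 and 8.00 in Pax7-/- replicates 1, 2 and 3, against 6.75, 6.80 and 8.02 in Pax7+/+ cells, a mean difference of -0.02 (interval -0.23 to 0.18). Id2 was at 7.76, 7.78 and 9.42 in Pax7-/- cells, against 7.73, 8.05 and 9.45 in Pax7+/+ cells (mean -0.09, interval -0.31 to 0.14). Id3 was at 6.47, 6.40 and 7.76 in Pax7-/- cells, against 6.19, 6.54 and 7.94 in Pax7+/+ cells (mean -0.01, interval -0.26 to 0.24). In Id1, Id2 and Id3 the genotypes overlapped and the pairs disagreed in sign. Id4 had the lowest mean of this class, -0.15 (-0.24, 0.04 and -0.25 in the pairs; interval -0.37 to 0.07), at 5.48, 5.79 and 5.98 in Pax7-/- cells, against 5.72, 5.74 and 6.23 in Pax7+/+ cells.

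Replicate 3 stood apart in most members in both genotypes. In 31 of the 42, both replicate 3 arrays lay above the other 4, and in 9 both lay below (39.9% and 46.7% of all genes). Among genes above background on at least 3 arrays the counts were 28 and 6 of 35 members, against 59.3% and 31.1% of genes. All 7 Smads, all 4 Id genes and the 3 TGF-beta ligands were among those above. Of the 9 BMP and GDF ligands, 7 were below and Bmp4 alone was above. Of these 7, Bmp5, Gdf10 and Mstn were not above background on any array, and Bmp6 and Bmp7 were not above it on every array. Bmp2 and Gdf5 were above it on all arrays. The background level itself was lower on replicate 3 (4.63 and 4.65, against 5.34 to 5.44), so a signal at background also falls below there.

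The median of replicate 3 minus the mean of replicates 1 and 2 was 1.06 in Pax7-/- cells and 1.10 in Pax7+/+ cells over the 42 members, and -0.10 in each genotype over all genes. Over the 35 members above background on at least 3 arrays it was 1.10 in Pax7-/- cells and 1.16 in Pax7+/+ cells, and 0.63 in each genotype over all such genes. Among the 32 members above background on all 6 arrays, Tgfb2 had the largest value, 2.23 in Pax7-/- cells and 2.13 in Pax7+/+ cells. Acvr2a and Tgfbr1 were above background in replicate 3 alone, so their size of difference is not given. The arrays also differed in the spread of all values, with an interquartile range of 2.52 and 2.56 on Pax7-/- and Pax7+/+ replicate 3, against 1.88 to 1.94 on the other 4. After quantile normalization, which gives all arrays one distribution, the median over the members was 0.17 in Pax7-/- cells and 0.10 in Pax7+/+ cells. Over all genes it was -0.01 in each genotype. For the 35 members above background on at least 3 arrays it was 0.15 and 0.09, against -0.11 and -0.10 for all such genes. Both replicate 3 arrays then lay above the other 4 in 15 members (34.7% of all genes) and below in 10 (35.9%). Of the genes named above, Smad2, Smad3, Smad5, Smad7, Id2, Id3 and Tgfb2 were among the 15. Smad1 was then among the 10 below, and Smad4, Smad6, Id1, Id4, Tgfb1, Tgfb3 and Bmp4 were in neither group. Bmp5 and Gdf6, which were not above background on any array, were among the 15 after this step and not among the 31 before it. The labels do not say how replicate 3 differed from the others.

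**Figure D3:**
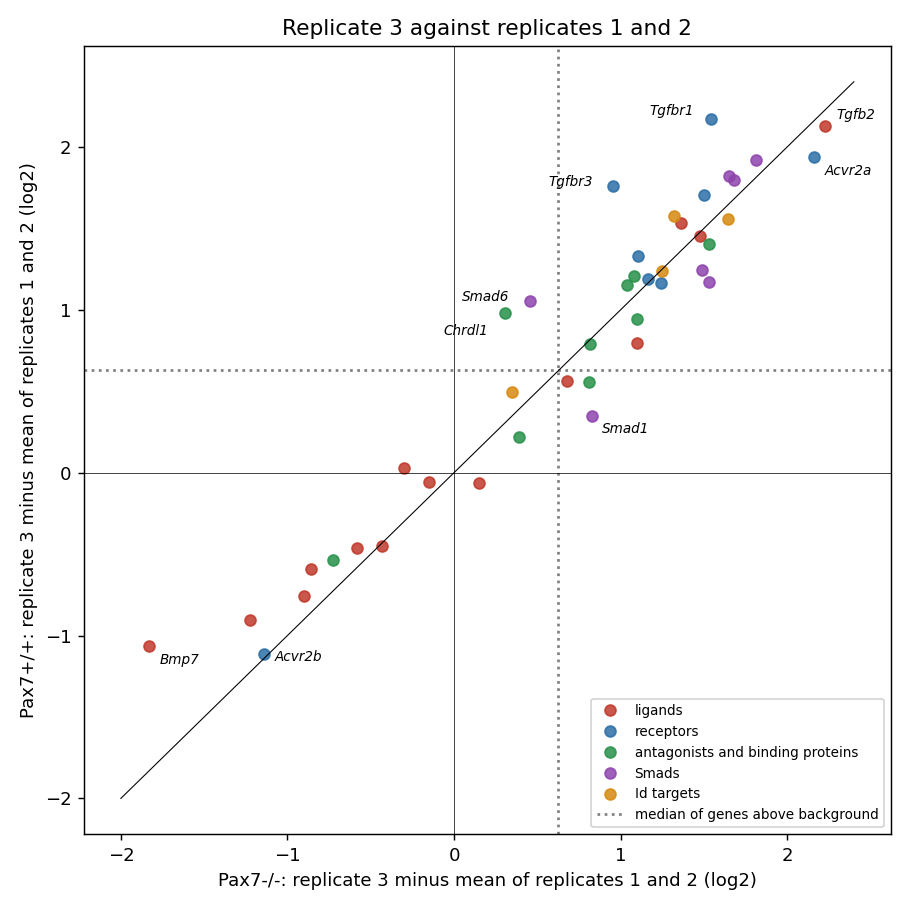
Replicate 3 minus the mean of replicates 1 and 2, in log2 units, in Pax7-/- cells (horizontal axis) and in Pax7+/+ cells (vertical axis) for the 42 genes, coloured by class. The solid line marks equal values and the dotted lines the median of genes above background (0.63 on each axis). Tgfbr3, Tgfbr1 and Smad6 lie above the line, with a larger replicate 3 difference in Pax7+/+ cells, and Tgfbr1 was above background in replicate 3 alone.

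Of 88 other genes of the pathway listed by role, 79 had a usable probe set and 59 were above background on at least 3 arrays. None passed the threshold with or without the block. With the block, 6 had an unadjusted p under 0.05 as higher and 5 as lower (3.28% and 3.45% of all genes). Of these, Inhbe (higher) and Acvr1c (lower) were not above background on any array. Gdf9 (lower) was not above it in Pax7-/- cells. The median difference of the 79 genes was 0.03. Fbn2, a fibrillin of embryonic microfibrils that hold latent TGF-beta and BMPs, had the smallest p of the 79 genes. It was at 6.69, 6.76 and 8.20 in Pax7-/- replicates 1, 2 and 3, against 7.42, 7.27 and 8.99 in Pax7+/+ cells, a mean of -0.68 (1.60-fold lower in Pax7-/- cells; limma SE 0.10 and adjusted p = 0.0578 in the blocked fit). Nbl1, a BMP antagonist, had a mean of 0.22 with pairs of 0.63, -0.13 and 0.15.

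Genes known to respond to TGF-beta were split evenly, with 8 of 16 means lower and 8 higher. Tgfbi, a matrix protein named for its induction by TGF-beta, was at 7.81, 7.93 and 8.74 in Pax7-/- replicates 1, 2 and 3, against 8.23, 8.28 and 9.43 in Pax7+/+ cells (mean -0.49, SE 0.10 with the block, limma adjusted p = 0.214). Hey1, a transcriptional repressor best known as a Notch target, was higher in each pair (0.28, 0.36 and 0.39; adjusted p = 0.432 with the block in limma). The connective tissue growth factor Ccn2 and the contractile genes Acta2 and Tagln, chosen after their values were seen, had means of 0.11, 0.03 and -0.07.

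Among 10 genes known to respond to BMPs, 8 means were higher and 2 lower, where 10950 of all 22180 genes had a higher mean. Of the 2 lower, Sp7 was not above background on any array. Of the 8 higher, Dlx5 was not above it in Pax7-/- cells. The pairs of 9 of the 10 disagreed in sign, 1 gene was higher in all 3, and the median of the list was 0.05, 0.10 and -0.05 in pairs 1, 2 and 3. Msx2, a homeobox factor of limb and skull, was at 5.83, 5.82 and 6.82 in Pax7-/- cells, against 5.63, 5.58 and 5.84 in Pax7+/+ cells. Its mean of 0.47 (limma adjusted p = 0.573 with the block) rested on the third pair (0.20, 0.23 and 0.98) and became 0.22 without replicate 3. Atoh8 had pairs of 0.19, -0.27 and -0.38. Among regulators, Pmepa1, which restrains TGF-beta signals, was higher in each pair (mean 0.24), as was the repressor Tgif2 (0.18, and 0.10 without replicate 3). Among receptors, the BMP co-receptor Rgmb had a mean of 0.26 and the type I receptor Acvrl1 one of -0.31, which became -0.14 without replicate 3 (-0.12, -0.16 and -0.65 in the pairs). Among ligands, Gdf2 had a mean of 0.30 (0.43, 0.03 and 0.44 in the pairs, interval 0.05 to 0.54). Its signal on Pax7+/+ array 3 (4.66) lay close to background (4.65). Gdf9 was not above background in Pax7-/- cells. In Pax7+/+ cells it was close to background, at 5.59, 5.40 and 4.89, against levels of 5.44, 5.34 and 4.65. Its difference of at least 0.16 on the log2 scale, lower in Pax7-/- cells, thus rests on signals near background.

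**Figure D4:**
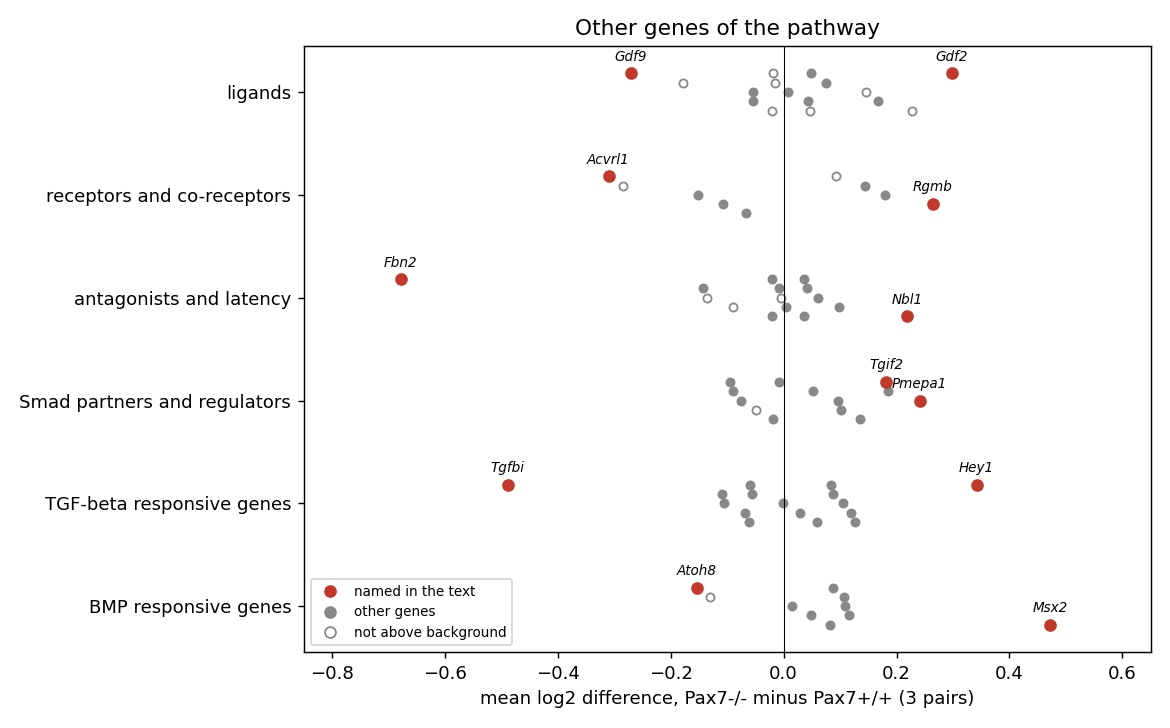
Mean log2 difference, Pax7-/- minus Pax7+/+ (horizontal axis), of the 79 other pathway genes in 6 lists. Red points are the genes named in the text, grey points the others and open points genes not above background in either genotype. Fbn2 at -0.68 and Msx2 at 0.47 are the outermost points.

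Mean differences of cell type markers between genotypes were as follows, where 13.8% of all genes had 1 sign in all 3 pairs in each direction. Of 11 fibroblast markers, 6 were lower and 1 was higher in all 3 Pax7-/- pairs (median -0.12), with a summed log2 signal of 97.7 to 104.8 on Pax7-/- arrays and 99.9 to 108.1 on Pax7+/+ arrays. The 10 skeletal muscle markers all had means above 0 (median 0.13), and 5 were higher in all 3 pairs. Their summed signal was 54.6 to 62.1 on Pax7-/- arrays and 52.5 to 60.9 on Pax7+/+ arrays. Of these 10, 4 were above background on all 6 arrays and 2 on none, and 1 had an unadjusted p under 0.05 with the block in limma. Of the 11 fibroblast markers, 4 had an unadjusted p under 0.05 with the block in limma, all lower in Pax7-/- cells (3.45% of all genes). These were Lum (mean -1.16), Col3a1 (-0.40), Pdgfra (-0.36) and S100a4 (-0.26). Lum was above background in replicate 3 alone. No fibroblast or skeletal muscle marker passed the threshold in either fit. Medians of the endothelial, macrophage, epithelial, neural, pericyte, cartilage and bone markers lay between -0.12 and 0.06. The part of these shifts in the pathway's differences was not tested, and in bulk RNA fewer cells of a type cannot be told apart from less RNA per cell.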

How the data were processed

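The deposited table holds 1 log2 value per probe set and array. Per the submitters' processing notes, the authors used Partek and RMA, which normalizes arrays and combines the probes of a set; no version, parameter or build is stated there. That the deposited values are log2 follows from RMA and from their range. The number of arrays limits the precision. No further normalization was applied in the main fit.

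Of 41345 probe sets, the platform annotation gave 1 gene for 23521, several for 1814 and none for 16010. For the 1082 genes with several probe sets that with the highest mean over the 6 arrays was used. Of the probe sets with 1 gene, 23328 matched RefSeq gene numbers of GRCm38.p6 and 0 symbols changed. Pax7-/- was compared with Pax7+/+ with limma 3.58.1 in R 4.3.3 (lmFit, eBayes, two-sided, Benjamini-Hochberg over all 22180 genes), with genotype alone and, as an alternative, with the replicate number as a block. Deviations from the genotype mean correlated at 0.920, 0.895 and 0.973 for equal numbers 1, 2 and 3, all above 0.1; the pairing comes from these data, not from a label, and replicates 1 and 2 of opposite genotype correlated as well (0.898 and 0.910). The script was tested on simulated data. Differences are Pax7-/- minus Pax7+/+; intervals are 95% intervals of the blocked fit. A gene at or below background on all 3 arrays of a genotype has only a bound there. Members and lists were chosen with earlier results of these data known. By rule, members past the threshold, without overlap, or with 1 sign in all 3 pairs and a mean of at least 0.3 were shown on every array. Further genes were shown on every array for description, outside this rule. Per list of other genes, the 2 with the smallest blocked p above background were named, and further genes were named outside this rule.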

Additional observations from a re-analysis of the deposited data

How the results depend on the processing

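Without a block, limma called 0 genes and 0 members under every other setting. With the replicate block 17 genes passed, with the batch block (replicates 1 and 2 against 3) 19, with the block after quantile normalization 15, with the block on genes above background on at least 3 arrays 42, and with the block and an intensity trend 54, among them 1 member, Fst (adjusted p = 0.0374; 0.0702 to 1.00 under the other settings). With the block and without replicates 1, 2 and 3 of both genotypes, 98, 2 and 4 genes passed and 0 members. The member median was -0.024 over the 35 members above background on at least 3 arrays, with and without the block, against -0.049 over all 42. With the block it was -0.067 without replicate 2 and -0.023 without replicate 3. Leaving out 1 array without a block unbalances replicate 3 between the genotypes, and the median then ran from -0.31 (without Pax7-/- replicate 3) to 0.29 (without Pax7+/+ replicate 3), being 0.069 without Pax7-/- replicate 1 and 0.074 without Pax7-/- replicate 2. Under the same omissions Acvr2a ran from -1.04 to 0.32, Bmp4 from -0.86 to 0.12, Bmpr1a from -0.72 to 0.090, Inhba from -0.026 to 0.61, Fst from -0.84 to -0.08 and Fstl3 from 0.12 to 0.58. With the block and without 1 replicate number, Bmp4 from -0.38 to -0.34, Bmpr1a from -0.42 to -0.28, Fst from -0.55 to -0.44, Fstl3 from 0.31 to 0.53 and Inhba from 0.24 to 0.44. These genes were chosen for pairs of 1 sign, so their sign could not change there. Acvr2a was measured in the third pair alone, so its range over these omissions is no measured difference, and neither are its values above. Averaging of probe sets could not change these 6 genes, which have 1 probe set each. Their signs were the same after quantile normalization. Centring shifts the difference of every gene alike, here Fst from -0.479 to -0.475 and Fstl3 from 0.390 to 0.394. A shift of this size could not change the sign of genes chosen for a mean of at least 0.3.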
